A study of Mus musculus with 4 samples.

Results

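Cadherins, protocadherins, contactins, neuroligins, Lrrtm proteins, NCAMs, SynCAMs and nectins are the adhesion molecules that hold the membranes of neurons together at synapses, along axons and between neighbouring somata. The genes described here were chosen by symbol alone, as those whose names begin with Cdh, Pcdh, Cntn, Nrxn, Nlgn, Lrrtm, Ncam, Cadm or Nectin and whose probe sets carry 1 gene name. There were 70 such genes with 106 probe sets, among 12393 named genes on the array. Of these, 37 genes (52.9%) with 54 probe sets averaged a signal of 50 or more, against 64% of all named genes, and each is represented by its brightest probe set. No probe set used here carries a neurexin name, so neurexins were not analysed here.

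The expression was measured in the dentate gyrus (DG) of C57Bl/6 mice, which the methods give as males of the substrains C57BL/6J or C57BL/6N bought at 8 weeks of age, without saying which went into which pool. The labels name no mutant allele or transgene. One pair of groups received 11 sessions of electroconvulsive stimulation (ECS) under isoflurane, 4 per week over 3 weeks, or sham handling without the shock. The other pair received the selective serotonin reuptake inhibitor (SSRI) fluoxetine at 22 mg/kg per day in drinking water for 4 weeks, or water as vehicle. The fluoxetine solution held 0.2% saccharin and the labels name only water for the vehicle group, so drug and saccharin cannot be told apart. The labels give 6 h between the last ECS and dissection, and the methods give 24 h. Fluoxetine-treated mice (n = 3) had been selected for a small frequency facilitation at the mossy fiber synapse, and the number of mice in the other pools is not given in the sources used here. The RNA of each group was pooled and hybridized to 1 array. There were therefore 4 arrays and no replicates, and neither an SD nor a p-value can be given for any value below.

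Classical cadherins bind their own kind across the cleft in the presence of calcium and are tied to actin by catenins. Type II cadherins are expressed in patterns that differ between neuron types, and protocadherins lend cells a recognition code or regulate the turnover of other cadherins. Nectins, contactins, NCAMs and SynCAMs belong to the immunoglobulin superfamily, and neuroligins and Lrrtm proteins sit on the postsynaptic side and bind neurexins. In the hippocampus, mossy fiber terminals of granule cells (GCs) are fixed to CA3 dendrites by junctions that contain nectins and N-cadherin.

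The values are MAS5 signals, which are linear intensities, and the signal of a treated pool over that of its control pool is given as a log2 ratio. A gene was called higher or lower at a difference of at least 1.5-fold. The arrays had not been brought to a common scale, and the median log2 ratio over all 7935 genes past the filter was -0.10 for ECS and 0.12 for fluoxetine. Centring each array on its median moved the ratios by 0.11 for ECS and by -0.12 for fluoxetine. Variation among pools without either treatment can be read only from sham and vehicle, which also differ in handling. Below, the control difference of a gene is its log2 ratio of the sham over the vehicle array with both arrays centred on their medians. Since it shares a control array with each comparison, it is no independent measure. The control spread is the scaled median absolute deviation of this difference among the 500 probe sets nearest in signal. It was 0.11 for the brightest of these genes and 0.41 for the dimmest. Markers of mature GCs were present in both control pools, and all 4 of them were lower in both treated pools, whereas of 5 choroid plexus markers only Kl passed the filter, with log2 ratios of -0.39 and -0.76.

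Nectin3 and Pcdh8 were higher, and Cdhr1 lower, with both treatments. With ECS, 3 of 37 genes (8.11%) were higher, namely Nectin3, Pcdh8 and Nectin4, against 3.84% of all genes, and 1 of 37 (2.7%), Cdhr1, was lower, against 6.47%. With fluoxetine, 7 of 37 (18.9%) were higher, against 8.49% of all genes, and 1 of 37 (2.7%), again Cdhr1, was lower, against 3.26%. The additional 4 with fluoxetine were Cdh22, Ncam2, Cntn4 and Pcdhb12. The 3 genes higher with ECS were also higher with fluoxetine (8.11% of the adhesion genes, against 2.79% of all genes), and the 1 lower gene was the same in both (2.7% against 1.9%). Of these 3, Nectin4 had both control signals below 50 and reached the filter only through its treated arrays. With signals below 50 taken as 50, 2 genes were higher with both. With the arrays median-centred, 3 genes were still higher and 1 lower with ECS, against 5.34% and 4.18% of all genes. With fluoxetine 5 were then higher and 1 lower, against 5.82% and 5.13%. None of the 37 genes differed 1.5-fold between the sham and vehicle pools after centring, where 2% of all genes were higher and 1.2% lower in sham.

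**Figure D1:**
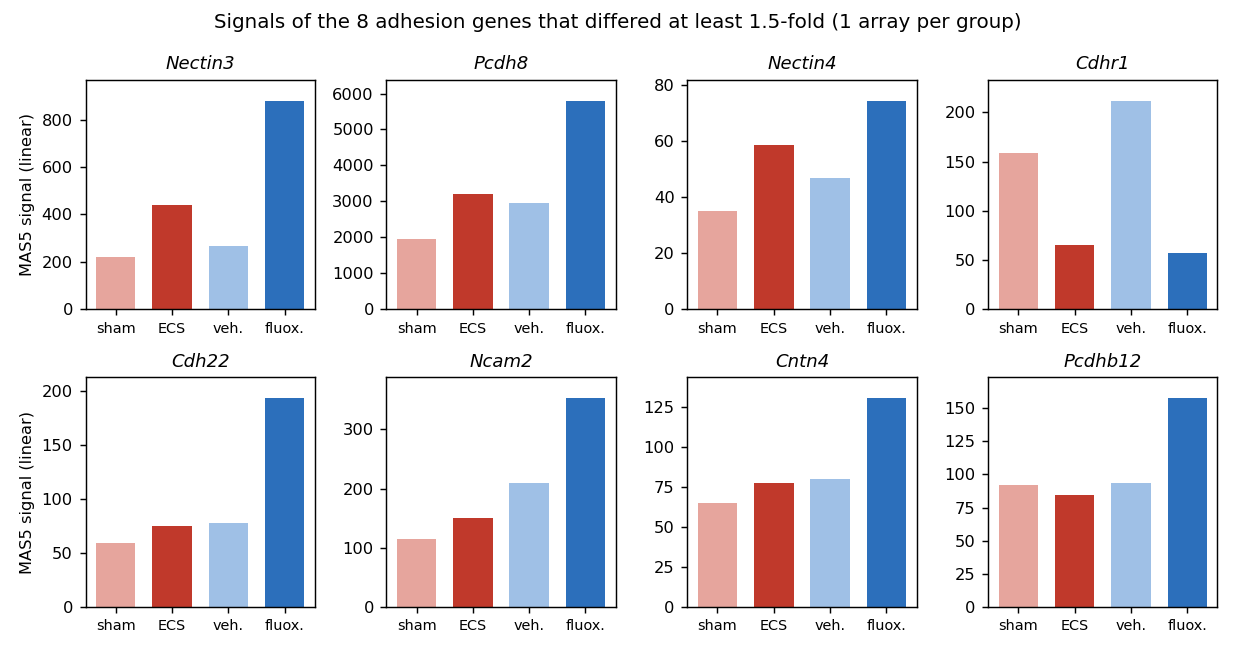
MAS5 signals (linear axis from 0) on the sham, ECS, vehicle and fluoxetine arrays for the 8 adhesion genes that differed at least 1.5-fold in either comparison. Each bar is 1 array of pooled RNA, without error. Nectin3, Pcdh8 and Nectin4 were higher and Cdhr1 was lower in both treated pools, while the other 4 were past the size with fluoxetine only.

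The promoters of Nectin3, Pcdh8 and Cdhr1 are shown first, since these genes moved with both treatments. That of Nectin4, which also did but had control signals below 50, is not shown. The sequences are the 250 bases before the RefSeq transcription start (GRCm38.p6), written 5′ to 3′ on the strand of the gene.
Nectin3, chr16:46496968-46497217, minus strand: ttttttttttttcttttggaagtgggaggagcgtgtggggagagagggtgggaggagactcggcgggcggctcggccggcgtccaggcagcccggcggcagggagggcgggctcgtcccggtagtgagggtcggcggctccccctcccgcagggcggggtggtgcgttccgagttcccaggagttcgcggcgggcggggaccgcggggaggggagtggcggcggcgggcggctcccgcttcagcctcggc
Pcdh8, chr14:79771313-79771562, minus strand: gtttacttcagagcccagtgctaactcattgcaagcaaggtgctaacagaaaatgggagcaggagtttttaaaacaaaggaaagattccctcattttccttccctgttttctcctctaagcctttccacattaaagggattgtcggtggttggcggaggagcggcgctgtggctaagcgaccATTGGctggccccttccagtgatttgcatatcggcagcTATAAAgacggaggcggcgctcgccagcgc
Cdhr1, chr14:37098348-37098597, minus strand: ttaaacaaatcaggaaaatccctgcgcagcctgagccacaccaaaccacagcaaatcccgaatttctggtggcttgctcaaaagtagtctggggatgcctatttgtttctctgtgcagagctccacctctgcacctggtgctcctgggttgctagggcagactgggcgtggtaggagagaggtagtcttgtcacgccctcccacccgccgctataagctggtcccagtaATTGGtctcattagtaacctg
Capitals mark matches to 6 motifs that were searched on both strands: the cAMP response element (CRE) TGACGTCA, its short form TGACG (part of the former), the AP-1 letters TGACTCA, the Egr letters GCGTGGGCG, the TATA box TATAAA and the CCAAT box CCAAT. The Pcdh8 window held a TATA box from 30 to 25 bases before the start, and such letters occur in 12.4% of 32851 promoters of the same length. It also held a CCAAT box on the opposite strand, from 68 to 64 bases before the start, as do 33.8% of promoters on either strand. The Cdhr1 window held CCAAT letters on the opposite strand from 21 to 17 bases before the start. The Nectin3 window held none of the 6 motifs and had a GC content of 73.2%, against 51.2% for Pcdh8, 53.2% for Cdhr1 and a median of 52.4% over all promoters. The letters of the CRE, its short form, AP-1 and Egr were in none of the 3 windows. They occur in 1.55%, 17.8%, 4.46% and 0.536% of all promoters.

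The nectins were represented by 2 genes, Nectin3 and Nectin4, and both were higher in both treated pools. Nectin4 reached the filter only through its treated arrays, so the filter favoured its direction. Nectin3 encodes the nectin of the dendritic side of the mossy fiber junctions. The sham and ECS arrays gave signals of 219 and 439, and the vehicle and fluoxetine arrays 267 and 882. The treated arrays thus lay above both control arrays. The log2 ratios were 1.00 for ECS and 1.72 for fluoxetine, with a control spread of 0.17 and a control difference of 0.21.

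Nectin3 was read by 4 probe sets past the filter, and the ratio of each was above 0 in both comparisons. They ranged from 0.77 to 1.00 for ECS and from 0.35 to 1.72 for fluoxetine on the log2 scale. The lowest value with fluoxetine, 0.35, was under 1.5-fold and came from the dimmest of them, which had signals of 34, 61.8, 55.8 and 71 on the sham, ECS, vehicle and fluoxetine arrays. Without it, the other probe sets past the filter had 1.38 to 1.72 with fluoxetine. The mean signal of that dim probe set, 55.65, was close to the filter, and this mean takes in the treated arrays. A further probe set, under the filter with a mean signal of 34.65, had -0.16 with ECS and 0.54 with fluoxetine. Nectin4, an epithelial nectin, had signals of 34.9 and 58.3 in the sham and ECS pools and 46.7 and 74.3 in the vehicle and fluoxetine pools. Both control signals were below 50, and the log2 ratios of 0.74 and 0.67 were 1.83 and 1.65 times the control spread of 0.41. With signals below 50 taken as 50, they were 0.22 and 0.57, both under 1.5-fold. The log2 ratio with fluoxetine was also under 1.5-fold after median-centring, at 0.55. Nectin3, in contrast, was called higher in both comparisons under all 11 alternatives, including a size of 2-fold.

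Among the non-clustered protocadherins, Pcdh8 and Pcdh20 lay on opposite sides. Pcdh8 encodes arcadlin, a protocadherin that is induced by neuronal activity and takes N-cadherin off the synaptic membrane. Its signal was 1961 in the sham pool, 3203 after ECS, 2959 in the vehicle pool and 5804 after fluoxetine. Each treated array was above its own control, while the vehicle and ECS arrays were close to each other on the deposited scale. The log2 ratios were 0.71 and 0.97 (1.63-fold and 1.96-fold) with a control spread of 0.12 and a control difference of -0.09. Pcdh20, a protocadherin of uncertain function, had signals of 1607, 1140, 1947 and 1522 in the sham, ECS, vehicle and fluoxetine pools. Its log2 ratios of -0.50 and -0.36 did not reach 1.5-fold, but the other probe set had -0.61 with ECS, which is past 1.5-fold, and -0.36 with fluoxetine. The remaining 6 genes of this group, among them Pcdh7, Pcdh10 and Pcdh18, did not reach the signal filter.

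Read by its brightest probe set, Cdhr1 was the only one of the 37 genes that was lower by 1.5-fold. It encodes a cadherin-related protein known from the outer segments of photoreceptors. Signals of 159 and 65.3 were read on the sham and ECS arrays, and of 212 and 57.4 on the vehicle and fluoxetine arrays, so that both treated arrays lay below both controls. The log2 ratios were -1.28 and -1.88 with a control spread of 0.30 and a control difference of 0.09. The treated signals were close to the filter of 50, and with a pseudocount of 16 the log2 ratios were -1.11 and -1.64. Only 1 probe set reads this gene. For comparison, Calb1, the calbindin gene of mature GCs, had -1.45 and -2.00 on the same arrays. In pooled tissue RNA, fewer cells of a type and less RNA per cell cannot be told apart.

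**Figure D2:**
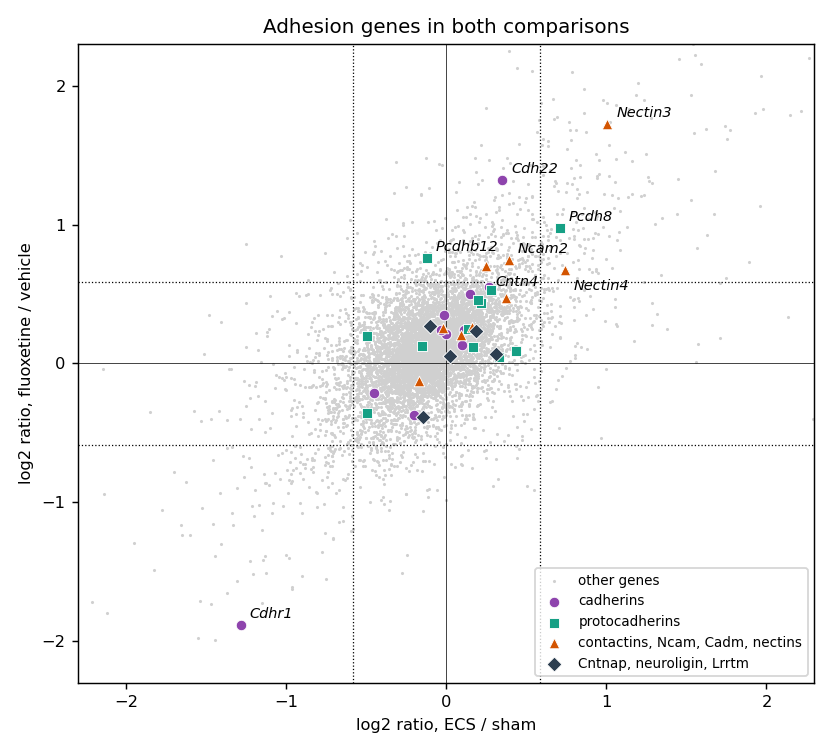
Log2 ratio with ECS (x axis) against that with fluoxetine (y axis) for the 37 adhesion genes (coloured symbols) and all other genes past the filter (grey, cropped to the axes). Dotted lines are 1.5-fold. Nectin3 (1.00 and 1.72) and Cdhr1 (-1.28 and -1.88) are farthest from the origin, and most of the other genes lie within the dotted lines.

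Classical cadherins were mostly under 1.5-fold. Cdh2, the N-cadherin of excitatory synapses, had signals of 1770 and 1751 in the sham and ECS pools and 2423 and 3080 in the vehicle and fluoxetine pools. The log2 ratios were thus -0.02 and 0.35 (control spread 0.13), and another probe set had 0.46 and 0.38. The other type I genes, Cdh4 and Cdh15, had -0.00 and 0.15 with ECS and 0.21 and 0.50 with fluoxetine. All of the type I genes were thus under 1.5-fold in both comparisons.

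Of 6 type II cadherins, Cdh22 alone was past the size, and with fluoxetine only. Its signals were 58.9 in the sham pool, 75.0 after ECS, 77.5 in the vehicle pool and 193 after fluoxetine, so that the fluoxetine array stood apart from the other arrays. Fluoxetine gave a log2 ratio of 1.32 and ECS one of 0.35 (control spread 0.30). The difference between the treatments was not tested, here or for any other gene. Cdh9, a cadherin that marks granule cells and CA3 cells and acts at their synapse, had signals of 1278, 1251, 1428 and 1684 in the sham, ECS, vehicle and fluoxetine pools. Its log2 ratios of -0.03 and 0.24 were smaller than the control difference of 0.34. Cdh8 and Cdh11 had negative values in both comparisons, at -0.20 and -0.37 for Cdh8 and at -0.45 and -0.21 for Cdh11. Cdh10 had 0.11 and 0.24. Cdh5, the cadherin of endothelial cells, had 0.10 and 0.13 with the lowest mean signal of the 37 genes, 51.7, and Cdh20 with 48.2 was the nearest gene below the filter. Cdh13, the T-cadherin that is anchored by a lipid tail, had signals of 142 and 171 in the sham and ECS pools and 174 and 254 in the vehicle and fluoxetine pools, and log2 ratios of 0.27 and 0.55.

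Clustered protocadherins, whose genes stand in tandem arrays and give each neuron its own combination of isoforms, were represented by 10 Pcdhb genes of 22. Their median log2 ratios were 0.18 for ECS and 0.22 for fluoxetine, where all genes had -0.10 and 0.12, and their median control difference was -0.14. On the deposited scale, 10 of 10 had a ratio above 0 with fluoxetine and 7 of 10 with ECS, against 66.8% and 35.6% of all genes. After median-centring, 7 of 10 did with fluoxetine and 7 with ECS, and the shares of all genes were not computed there. Pcdhb12 alone of the 10 was past the size, with fluoxetine, where 8.49% of all genes were higher. Its signals were 92.0, 84.5 and 93.2 in the sham, ECS and vehicle pools and 158 after fluoxetine. Its log2 ratios were -0.12 and 0.76 with a control spread of 0.28 and a control difference of 0.49. Pcdhb9, the gene of this group with the highest signals, had 418 and 480 in the sham and ECS pools and 707 and 972 in the vehicle and fluoxetine pools. Its log2 ratios were 0.20 and 0.46. Pcdhb7 had 0.44 and 0.09, and its control difference was -0.44. The paralogs of this cluster are similar in sequence, and how far their probe sets read each other was not tested. A further 6 probe sets carry the names of 9 or 14 Pcdha genes each and were not counted among the 37 genes. Of these, the brightest had log2 ratios of -0.01 and 0.11.

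**Figure D3:**
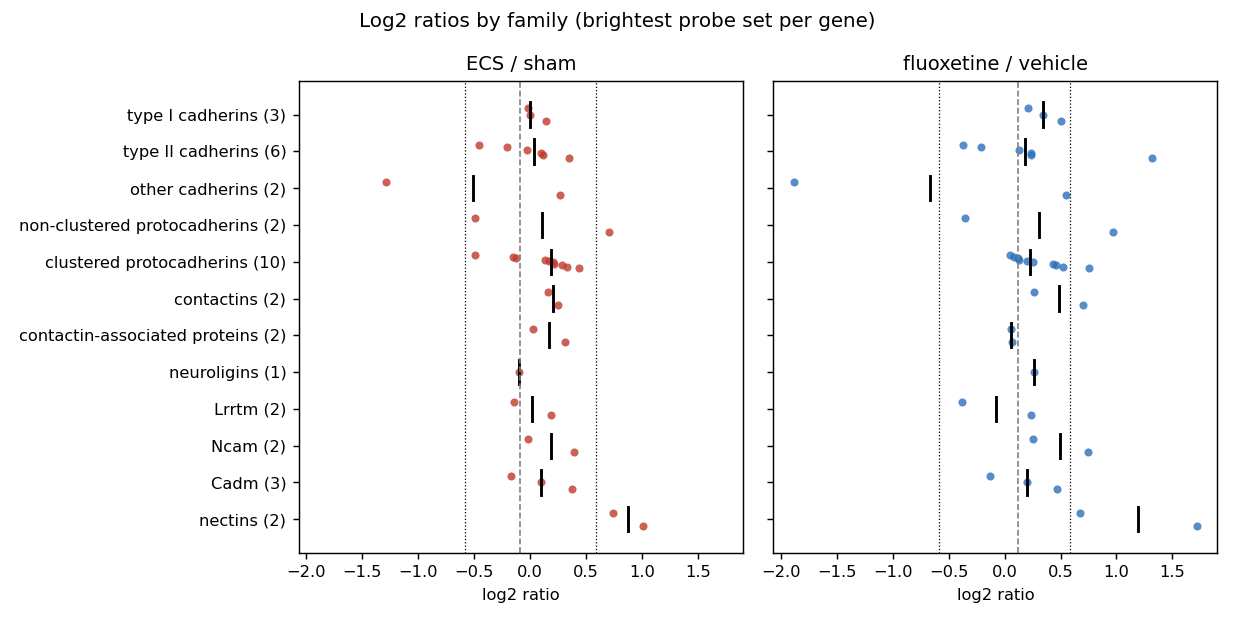
Log2 ratio (x axis) of each adhesion gene with ECS (left, red) and with fluoxetine (right, blue) by family, with the number of genes in parentheses. Black bars are family medians, dashed lines the median of all genes (-0.10 and 0.12) and dotted lines 1.5-fold. The median of the nectins lies farthest to the right in both panels, but Nectin4 reached the filter only through its treated arrays. Of the 2 other cadherins, Cdhr1 is far to the left and Cdh13 is above 0.

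Among the contactins, which are immunoglobulin proteins with a lipid anchor, Cntn1 was under 1.5-fold. Its signals were 2938 and 3276 in the sham and ECS pools and 4514 and 5422 in the vehicle and fluoxetine pools, which gave log2 ratios of 0.16 and 0.26. The other probe set of Cntn1 had 0.38 and 0.57. Cntn4, known from the guidance of olfactory axons, had signals of 65.1 and 77.3 in the sham and ECS pools and 80.3 and 131 in the vehicle and fluoxetine pools. The log2 ratio with fluoxetine, 0.70 (control spread 0.33), was past the size as deposited but 0.58 after median-centring, just under it. With ECS it was 0.25.

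The contactin-associated proteins join axons to glia and gather potassium channels at the juxtaparanode. Cntnap2 had signals of 243 and 301 in the sham and ECS pools and 346 and 362 in the vehicle and fluoxetine pools. The log2 ratios of its brightest probe set were 0.31 and 0.07, but those of another were -0.40 and -0.32, so no direction can be given. Cntnap4 had 0.02 and 0.05.

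Ncam1, the neural cell adhesion molecule that carries polysialic acid on immature neurons, had signals of 1486 and 1467 in the sham and ECS pools and 2187 and 2605 in the vehicle and fluoxetine pools. Its log2 ratios were -0.02 and 0.25, and over 3 probe sets they ranged from -0.18 to 0.08 and from 0.25 to 0.50. Ncam2, the homologue of olfactory axons, had signals of 115 and 151 in the sham and ECS pools and 210 and 353 in the vehicle and fluoxetine pools. Fluoxetine gave a log2 ratio of 0.75 and ECS one of 0.39 (control spread 0.22). The other probe set of Ncam2 showed the reverse order, 0.28 with fluoxetine and 0.93 with ECS, but there the sham signal of 32.5 was below 50 and the control difference was -1.05. Averaged over both probe sets, Ncam2 had 0.66 with ECS and 0.51 with fluoxetine. It was thus past 1.5-fold with ECS in place of fluoxetine.

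**Figure D4:**
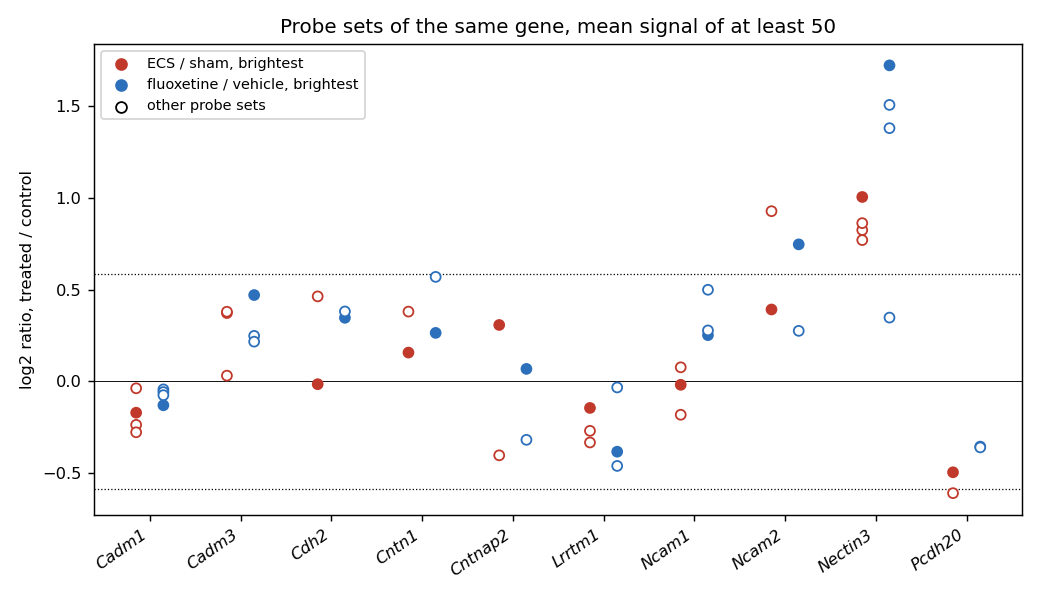
Log2 ratio (y axis) of every probe set with a mean signal of at least 50, for the 10 adhesion genes with more than 1 such probe set, with ECS (red) and fluoxetine (blue). Filled points are the brightest probe set, open points the others, and dotted lines 1.5-fold. The probe sets of Nectin3 shown here are all above 0, those of Cntnap2 lie on both sides of 0, and those of Ncam2 exchange their order between the treatments. Probe sets under the filter are not shown.

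Synaptic organizers were under 1.5-fold in both comparisons. Nlgn2, the neuroligin of inhibitory synapses, had signals of 574 and 535 in the sham and ECS pools and 721 and 867 in the vehicle and fluoxetine pools, and log2 ratios of -0.10 and 0.27. Lrrtm1, which binds neurexins at excitatory synapses, had signals of 1110 and 1004 in the sham and ECS pools and 1794 and 1376 in the vehicle and fluoxetine pools. The treated array was the lower of each pair. Its log2 ratios were -0.14 and -0.38 (control spread 0.15), and over 3 probe sets they were -0.33 to -0.14 and -0.46 to -0.03. Lrrtm2 had 0.18 and 0.23. Cadm1, or SynCAM1, had signals of 1797 and 1596 in the sham and ECS pools and 2403 and 2196 in the vehicle and fluoxetine pools, and log2 ratios of -0.17 and -0.13. Of its relatives, Cadm3 had 0.37 and 0.47 and Cadm4 had 0.09 and 0.20.

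The 37 genes had a median log2 ratio of 0.14 for ECS and 0.24 for fluoxetine, where all genes had -0.10 and 0.12. The ratio was above 0 for 23 genes (62.2%) with ECS and for 31 (83.8%) with fluoxetine, where 35.6% and 66.8% of all genes were above 0. Since these shares depend on the scale of the arrays, the genes were also set against the median of all genes. Of the 37, 27 (73%) lay above it with ECS and 26 (70.3%) with fluoxetine. Median-centring turned the sign of 5 genes with ECS (Cdh2, Cdh4, Cdh9, Ncam1 and Nlgn2) and of 5 with fluoxetine (Cntnap2, Cntnap4, Pcdhb7, Pcdhb19 and Pcdhb21), none of which was past 1.5-fold. Within 1 control spread of 0 on the deposited scale were 19 genes with ECS and 10 with fluoxetine. These counts also depend on the scale of the arrays, and the share of all genes was not computed. On the deposited scale, the ratios with ECS and fluoxetine had the same sign in 29 genes (78.4%), against 58% of all genes. There the medians of all genes have opposite signs, so these shares depend on the scale, and they were not computed after centring. The ratios correlated at 0.623 over the 37 genes and at 0.492 over all genes (Spearman, across genes that share the same 4 arrays). Over the 29 genes under 1.5-fold in both, the coefficient was 0.458. These genes were picked by the same ratios, and the coefficient of all genes under that cut was not computed. It therefore cannot be set against the other coefficients. The comparisons have no array in common, and genes are not independent replicates. Of the 15 genes with a mean signal of 500 and over, 1 was past 1.5-fold with each treatment, and of the 9 genes at 50 to 100, 1 was with ECS and 2 were with fluoxetine. The shares of all genes in these signal classes were not computed.

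A list of partners of these molecules, of which 61 genes passed the filter, had medians of -0.08 with ECS and 0.13 with fluoxetine. With ECS, 2 were higher and 4 lower, and with fluoxetine 5 were higher and 2 lower, against 3.84% and 6.47%, and 8.49% and 3.26%, of all genes. Past 1.5-fold in both were Jup, Tenm4 and Dscaml1. Jup, which encodes plakoglobin, a catenin of desmosomes and adherens junctions, had signals of 46.4 and 88.7 in the sham and ECS pools and 68.9 and 109 in the vehicle and fluoxetine pools. Its log2 ratios were 0.93 and 0.67 with a control spread of 0.31, and the latter was 0.54 after median-centring, under 1.5-fold. Tenm4, a teneurin that binds latrophilins, had 121 and 187, and 142 and 234, with log2 ratios of 0.63 and 0.72. Dscaml1, an immunoglobulin protein related to DSCAM, had 147 and 84.3, and 136 and 88.7, with log2 ratios of -0.80 and -0.62. Its control difference was 0.61, close in size to the ratio with fluoxetine.

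Of 8 catenin genes and their relatives, 1 (Jup) was higher in both comparisons and 1 (Ctnnal1) was lower with ECS. Ctnnb1, the beta-catenin, had signals of 4894 and 4659 in the sham and ECS pools and 6440 and 7119 in the vehicle and fluoxetine pools, and log2 ratios of -0.07 and 0.14. Ctnna1 had 0.26 and 0.37, Ctnna2 -0.01 and 0.03 and Ctnnd2 -0.00 and 0.05. Of 15 scaffold genes of neuroligins and neurexins, none was past the size with ECS, and 1, Magi1, was lower with fluoxetine, at -1.01 (control difference -0.55). Averaged over its 3 probe sets past the filter, Magi1 was no longer lower by 1.5-fold with fluoxetine. Dlg4, the PSD-95 gene, had -0.15 and 0.13, and Gphn, gephyrin of inhibitory synapses, -0.06 and 0.21. Other partners past 1.5-fold in 1 comparison were named after their values were seen. With ECS these were Tenm1 at -1.01, Nxph1 at -0.80 (control difference 0.69) and Ctnnal1 at -0.94, and with fluoxetine Ptprf at 0.87, Cbln1 at 0.94 and Igsf9 at 0.73. Ctnnal1, Cbln1 and Igsf9 had mean signals of 55, 56 and 54, close to the filter, and control spreads of 0.40, 0.39 and 0.40. Both control signals of Cbln1 and of Igsf9 were below 50.

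Markers of other cell types moved in part with these genes. All 4 markers of immature GCs were higher with ECS and 3 of 4 with fluoxetine, and their summed signal was 884 in the sham, 1525 in the ECS, 1077 in the vehicle and 2607 in the fluoxetine pool. Of the markers of CA1 and CA3 pyramidal cells, 4 passed the filter and 1, Bok, was higher in both. Their summed signal was 667, 941, 974 and 1416 on the same arrays, and Bok had log2 ratios of 0.83 and 0.85. Without Bok the summed signal of the other 3 was 282, 258, 419 and 412, lower in each treated pool than in its control. These 3 did not move together. Wfs1, the brightest of them, had -0.39 and -0.14, Ccn3 had 0.27 and 0.49, and Iyd had 0.22 and -0.18. Bok was set apart after its values were seen. The 5 endothelial markers past the filter, which bear on Cdh5, had medians of 0.13 and 0.06, and those of the 6 oligodendrocyte markers were -0.04 and 0.23. One endothelial marker, Vwf, was higher with fluoxetine, at 1.43. Of 7 microglia markers, 1 (Trem2, at -0.61) was lower with ECS and 3 were higher with fluoxetine, where the median of all 7 was 0.58. Of 8 interneuron markers, 1 was higher with ECS and 2 with fluoxetine. Of 8 astrocyte markers, 1 was higher and 1 lower with ECS and 2 higher with fluoxetine, with medians of 0.02 and 0.23. Among them, Gfap was higher with both, at 2.24 and 2.43, and Slc1a3 was lower with ECS, at -0.64. Of 3 oligodendrocyte precursor markers, 1 was lower with fluoxetine. Of 4 pericyte and smooth muscle markers, 1 was lower with ECS and 1 higher with fluoxetine. Of 4 markers of meninges and fibroblasts, 1 was higher and 1 lower with ECS, and 2 higher and 1 lower with fluoxetine. Here Col1a2 had 1.02 and 1.58, Ogn had -3.45 and -3.05, and Dcn had 0.22 and 1.32. The part of these cells in the values of Nectin3, Pcdh8, Cdh22 or any other adhesion gene was not tested.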

How the data were processed

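Total RNA of the DG was pooled per group, and 100 ng of it was amplified with the 3′IVT Express kit and hybridized to GeneChip mouse genome 430A 2.0 arrays by the authors. The deposited values are linear signal intensities, which per the labels were made with MAS5. They are not on a common scale, since the trimmed mean signal was 263, 252, 377 and 417 on the sham, ECS, vehicle and fluoxetine arrays. Of 22690 probe sets, 13422 were used, after 64 controls and all sets averaging under 50 had been removed. From the intensities, log2 ratios were computed with Python 3.11.15, numpy 2.4.6 and pandas 2.3.3, and figures were drawn with matplotlib 3.10.9. Gene names came from the platform annotation, and the current RefSeq symbols of all 37 genes were the same. No test was run, since each group has 1 array. Their number limits the precision.

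The genes, the list of partners (catenins, scaffolds, other adhesion molecules, sheddases) and the marker lists were chosen with earlier results of these data known. Genes named in the text are those past 1.5-fold in either comparison, the gene with the highest signal in each family, and partners past 1.5-fold in both; other genes are given as values of their family and were named after their values were seen. The steps were tested on simulated data. The alternatives tried were median-centring and quantile normalization, other signal filters, a floor of 50, a pseudocount of 16, other choices of probe set, and sizes of 1.2-fold and 2-fold. Promoter sequences are those of RefSeq, GRCm38.p6, and 18 of the 37 genes had one in the table used.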

Additional observations from a re-analysis of the deposited data

Results flagged for a closer look

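A probe set that carries the names of 9 Pcdha genes, and was therefore not counted among the adhesion genes, had a higher signal in the ECS pool than in its control. Its signals were 32.7 and 52.4 in the sham and ECS pools and 80.0 and 34.9 in the vehicle and fluoxetine pools. ECS gave a log2 ratio of 0.68 and fluoxetine one of -1.197, larger in size and of the opposite sign, and the difference between the treatments was not tested. Its control difference, the centred sham over vehicle log2 ratio, was -0.79, and its mean signal of 50 lay at the filter.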

How the results depend on the processing

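Nectin3, Pcdh8 and Cdhr1 kept their direction in both comparisons under every alternative in which they passed the filter. The ratios of 18 adhesion genes, those past 1.5-fold or brightest in their family, were followed, and none past 1.5-fold changed its sign. The signs of the partners were not followed through all alternatives. Among the followed ratios under 1.5-fold, 6 ratios of 5 genes did. Averaged over probe sets, Cntnap2 had -0.05 with ECS and -0.13 with fluoxetine, and Cdh2 had 0.22 with ECS. Centring or quantile normalization turned Cdh2, Cdh9, Ncam1 and Nlgn2 with ECS, and Cntnap2 with fluoxetine, to values between -0.06 and 0.09. Without a signal filter, 14 adhesion genes were higher and 6 lower with ECS, 20 higher and 6 lower with fluoxetine, 10 higher in both and 3 in opposite directions, and the median of the other cadherins with fluoxetine was 0.79 in place of -0.67. This setting adds 33 genes with a mean signal below 50. With a mean of at least 200, Cdhr1 was left out, so that 0 genes were lower with either treatment or with both, and 3 were higher with fluoxetine. At 1.2-fold, 11 were higher and 4 lower with ECS, 16 higher and 4 lower with fluoxetine, 8 higher in both and 2 lower in both. At 2-fold, 1 was higher with ECS, 2 with fluoxetine and 1 in both. For these filters and sizes the shares of all genes were not computed, so the counts cannot be set against the whole array. Median-centring and quantile normalization each left 5 genes higher with fluoxetine, without Nectin4 and Cntn4. For the partners, whose alternatives were added after seeing the data, quantile normalization gave 2 higher and 5 lower with fluoxetine. No paired analysis was possible because each group has 1 array. Signals close to 50 limit the precision of Nectin4, Cdh5, Cdhr1 and the dimmer Pcdhb genes, and among the partners that of Ctnnal1, Cbln1 and Igsf9.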

Other observations

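Among the genes below the signal filter, Nectin1, the partner of nectin-3 on the axonal side of the mossy fiber junction, had signals of 22.6 and 38.9 in the sham and ECS pools and 22.5 and 36.7 in the vehicle and fluoxetine pools. Its log2 ratios would be 0.78 and 0.71, but all of its signals were below 50. The only probe set of Nlgn1, a neuroligin of excitatory synapses, had signals of 10, 5, 5.8 and 14 in the sham, ECS, vehicle and fluoxetine pools. The other probe set of Nectin4 had a mean signal of 39.7 and log2 ratios of -0.10 and 0.42, so the probe sets of Nectin4 did not have the same sign with ECS.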
